A study of Mus musculus with 6 samples.

Results

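The genes described here encode the Wnt ligands, their receptors and the secreted proteins that modulate them, measured in whole mouse kidneys at E14.5 (days after conception). They were taken by symbol: Wnt, Fzd, Lrp5 and Lrp6, Ror, Ryk, Sfrp, Frzb, Wif1, Dkk, Dkkl1, Kremen, Rspo and Lgr4 to Lgr6. The rule found 54 genes among the 19938 genes measured, namely 19 Wnt ligands, 10 Frizzled receptors, 2 Lrp co-receptors, 3 Ror and Ryk receptors, 6 antagonists that bind Wnt, 5 Dickkopf proteins, 2 Kremen receptors, 4 R-spondins and 3 Lgr receptors. The rule itself used no measured value, though the genes were chosen with earlier results of these data known.

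The study set E14.5 kidneys labelled Foxd1 null (Foxd1-/-, a loss carried by every cell) against E14.5 wild type kidneys of littermates, with Foxd1 heterozygotes as parents. There were 3 arrays (Affymetrix) for each genotype, and each array measured 2 pairs of kidneys joined into 1 pool, never both from 1 litter. As the study drew on 3 litters in all, pools share litters, while the p-values treat them as independent. Embryo sex was not determined, whole kidneys were used without sorting, and which part of Foxd1 the allele lacks was not found in these sources.

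Wnt proteins are lipid-modified secreted ligands that bind Frizzled receptors. With the co-receptors Lrp5 and Lrp6 they stabilise beta-catenin, which acts in the nucleus with TCF and LEF factors, whereas Ror and Ryk receptors carry other Wnt responses. In the developing kidney Wnt9b from the ureteric bud and Wnt4 from the induced mesenchyme drive the conversion of nephron progenitors into epithelium, Wnt11 is made at the bud tips and Wnt7b in the bud's stalk. Sfrp, Frzb and Wif1 proteins bind Wnts outside the cell, Dickkopf proteins block Lrp5 and Lrp6 together with Kremen receptors, and R-spondins raise the number of Frizzled receptors on the cell surface through Lgr4, Lgr5 and Lgr6.

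Foxd1 encodes a forkhead factor of the stromal progenitors, and its own row checks the labels. It read 10.05, 9.77 and 9.71 in the null-labelled pools, against 9.40, 9.55 and 9.69 in the wild type pools (deposited log2 values, pools 1 to 3). It was thus not lower in any pool labelled null (log2 difference 0.30, limma adjusted p of 0.246), which goes against the label if the probes lie within the lost part. All directions given here compare the pools by their labels. The array medians lay between 6.984 and 7.057 and the correlations between arrays between 0.985 and 0.9938.

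Among the 54 genes 3 rose, which encode the secreted modulators Sfrp2, Sfrp4 and Dkk2, and 2 fell, which encode the antagonist Dkk1 and the R-spondin receptor Lgr4. The other 49 did not pass the threshold, an adjusted p under 0.05 in limma's test with Benjamini-Hochberg adjustment over all genes. No Wnt ligand, Frizzled or Lrp gene was among those that passed. The share called was 9.26% of the 54, where 2.40% of all genes were called; for rises it was 5.56% against 1.64%, and for falls 3.70% against 0.767%. The median log2 difference of the 54 genes, null-labelled minus wild type, was 0.01, as it was over all genes. In whole kidneys, fewer cells of a type and less RNA per cell cannot be told apart.

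**Figure D1:**
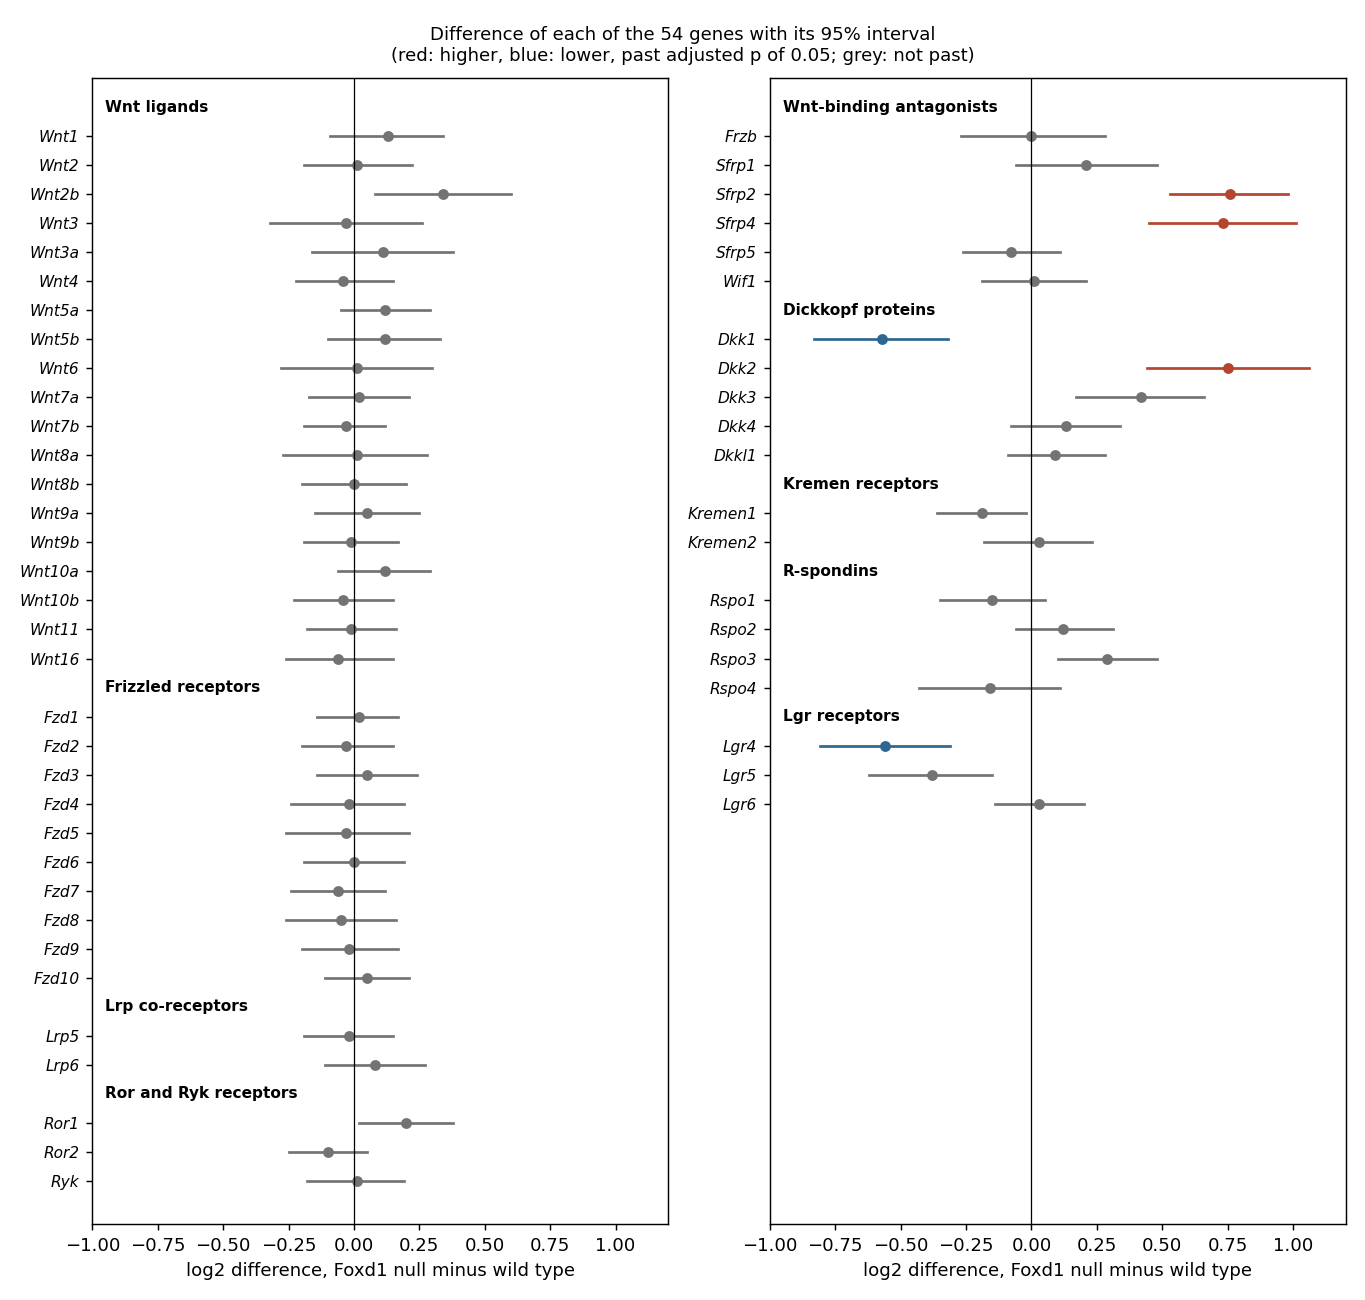
Log2 difference of each of the 54 genes (x axis, mean of the Foxd1 null pools minus mean of the wild type pools, n = 3 each; points) with its 95% interval from limma (lines), grouped by role down the page. Sfrp2, Sfrp4 and Dkk2 lie to the right, Dkk1 and Lgr4 to the left, and the intervals of all 10 Frizzled genes lie between -0.26 and 0.24.

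Sfrp2, a secreted Frizzled-related protein that binds Wnts, had log2 values of 10.55, 10.78 and 10.63 in the null-labelled pools, against 9.80, 9.82 and 10.08 in the wild type pools. All null-labelled pools stood above all wild type pools, and the null-labelled pools lay close together. The difference was 0.76 (SE 0.10), a 1.69-fold rise with a limma adjusted p of 0.00447.

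Sfrp4, of the same family, read 7.33, 7.79 and 7.69 in null-labelled pools and 6.79, 7.05 and 6.79 in wild type pools. Null-labelled pool 1 was nearest to wild type, and the groups did not overlap. Sfrp4 rose by 0.73 (SE 0.13, 1.66-fold), with a limma adjusted p of 0.0167.

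No other gene of the family passed. Sfrp1, a close relative of Sfrp2, read 9.51, 9.77 and 9.94 in null-labelled pools and 9.39, 9.49 and 9.71 in wild type pools. The groups overlapped, and the difference of 0.21 (95% interval -0.06 to 0.48) did not pass. Whether Sfrp1 and Sfrp2 differ in response was not tested.

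The remaining antagonists that bind Wnt had overlapping groups. Sfrp5 read 6.13, 6.33 and 6.33 in null-labelled pools, against 6.33, 6.40 and 6.28 in wild type pools. Wif1, which binds Wnts through its own WIF domain, read 6.24, 6.49 and 6.47 in null-labelled pools, against 6.42, 6.30 and 6.45 in wild type pools. Both lay under 6.59 in the mean of either genotype, the 95th percentile of the rows of 1027 olfactory receptor genes, a family used here as a rough guide to the low end of the array. Frzb, also called Sfrp3, read 7.03, 7.08 and 7.51 in null-labelled pools, against 7.31, 7.17 and 7.12 in wild type pools, so that null-labelled pool 3 was highest and the other null-labelled pools were lowest.

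Dkk2 and Dkk1, both Dickkopf proteins that bind Lrp5 and Lrp6, moved in opposite directions. Dkk2 read 9.77, 10.24 and 10.35 in null-labelled pools, against 9.28, 9.46 and 9.37 in wild type pools. Every null-labelled pool was above every wild type pool, pool 1 by the least. It rose by 0.75 (SE 0.14, 1.68-fold), with a limma adjusted p of 0.0221.

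Dkk1, the founding Dickkopf protein and itself a known target gene of beta-catenin, read 6.98, 7.37 and 7.04 in null-labelled pools, against 7.84, 7.69 and 7.57 in wild type pools. Here null-labelled pool 2 was nearest to wild type, and the groups again did not overlap. Dkk1 fell by 0.57 on the log2 scale (SE 0.11, 1.49-fold lower in null-labelled pools), with a limma adjusted p of 0.0316.

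Dkk1 is the 1 gene of the 54 in the authors' deposited table of 488 probe sets. That table, the authors' deposited table, lists it with a signed fold of -2.13 and a p-value of 0.00299. The authors' deposited table gives p-values for its expression of 0.293 in null-labelled and 0.0719 in wild type kidneys, so it passed 0.05 in neither. The log2 difference of -1.09 from the medians in the authors' deposited table exceeds the -0.57 found here in size by 0.515, a wider gap than for 98.0% of its probe sets (median gap 0.0919). The size of the fall of Dkk1 is therefore uncertain.

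**Figure D2:**
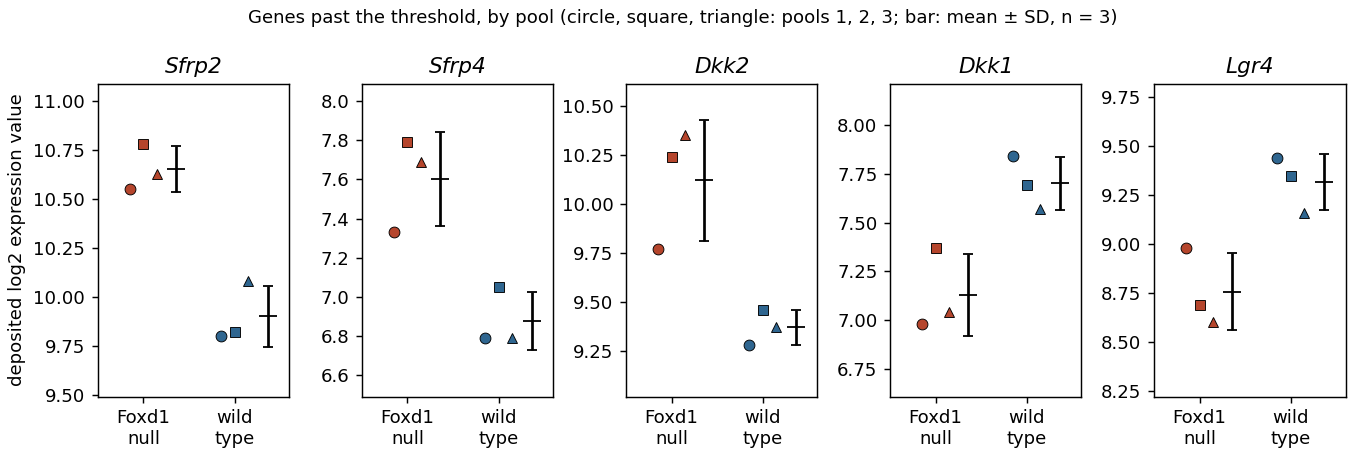
Deposited log2 values (y axis, each panel spanning the same range of log2 units) of the 5 genes past the threshold in the 3 Foxd1 null pools (red, left) and the 3 wild type pools (blue, right). Bars give the mean ± SD over 3 pools. The groups do not overlap in any panel.

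Because Dkk1 is a textbook target of beta-catenin and its paralog Dkk2 moved the other way, their promoter windows are shown, 250 bases before to 50 after the RefSeq start site (GRCm38.p6). Capitals mark the letters CTTTGA, a form of the core of sites of TCF and LEF factors. These letters were searched on both strands, where the other strand reads TCAAAG. The form CTTTGT, which stands in both windows, was not searched or marked. The Dkk1 window is chr19:30549447-30549746 (minus strand) and the Dkk2 window chr3:132085042-132085341 (plus strand).
Dkk1: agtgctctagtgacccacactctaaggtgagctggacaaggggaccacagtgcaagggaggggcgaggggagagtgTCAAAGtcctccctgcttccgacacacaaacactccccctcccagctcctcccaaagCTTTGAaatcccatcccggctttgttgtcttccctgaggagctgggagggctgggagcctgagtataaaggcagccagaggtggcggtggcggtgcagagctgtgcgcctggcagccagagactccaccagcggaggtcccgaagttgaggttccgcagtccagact
Dkk2: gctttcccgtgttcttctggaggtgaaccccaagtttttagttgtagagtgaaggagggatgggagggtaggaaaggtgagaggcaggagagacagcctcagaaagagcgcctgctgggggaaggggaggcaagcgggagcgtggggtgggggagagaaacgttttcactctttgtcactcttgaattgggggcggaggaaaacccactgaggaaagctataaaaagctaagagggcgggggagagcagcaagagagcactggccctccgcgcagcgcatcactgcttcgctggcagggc
The Dkk1 window held 2 matches, which begin 174 and 117 bases before the start site, and the Dkk2 window held 0. Among all 32851 windows of this length 16.0% held at least 1 match and 1.73% held 2 or more. Windows were found for 36 of the 54 genes, and 6 of their 39 windows (15.4%) held a match. The windows of Sfrp2 and Lgr4 held 0, and no window was found for Sfrp4. A match is a description of letters and not evidence of binding.

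The other Dickkopf genes did not pass. Dkk3, a divergent member of the family, read 6.85, 6.77 and 7.06 in null-labelled pools, against 6.43, 6.32 and 6.67 in wild type pools. Its groups did not overlap, with a difference of 0.42 (SE 0.11) and a limma adjusted p of 0.0971. Dkk4, an inhibitor of the same receptors, read 6.01, 6.03 and 6.11 in null-labelled pools, against 5.75, 6.08 and 5.93 in wild type pools. Dkkl1, a related gene known mainly from testis, read 6.21, 6.13 and 6.31 in null-labelled pools, against 6.06, 6.24 and 6.08 in wild type pools. The groups of both overlapped and lay in the range of the olfactory receptor rows.

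Kremen1 and Kremen2 encode receptors that take up Lrp6 together with Dickkopf proteins. Kremen1 read 7.00, 6.88 and 6.96 in null-labelled pools, against 7.20, 7.16 and 7.05 in wild type pools. The groups stood apart by a small margin, and the difference of -0.19 (SE 0.08) had a limma adjusted p of 0.289. Kremen2 read 6.68, 6.94 and 6.82 in null-labelled pools, against 6.67, 6.85 and 6.83 in wild type pools, with overlapping groups.

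Lgr4, a receptor for R-spondins whose loss is known to impair kidney growth in mice, read 8.98, 8.69 and 8.60 in null-labelled pools, against 9.44, 9.35 and 9.16 in wild type pools. All null-labelled values were below all wild type values, pool 1 by the least. Lgr4 fell by 0.56 on the log2 scale (SE 0.11, 1.47-fold lower in null-labelled pools), with a limma adjusted p of 0.035.

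Lgr5, an R-spondin receptor and a Wnt target known from early nephrons, read 6.97, 7.33 and 7.06 in null-labelled pools, against 7.59, 7.55 and 7.37 in wild type pools. Its groups did not overlap, though null-labelled pool 2 came close to wild type pool 3. The difference of -0.38 (SE 0.11) did not pass, with a limma adjusted p of 0.112. Lgr6, the third receptor of the family, read 6.74, 6.63 and 6.66 in null-labelled pools, against 6.58, 6.73 and 6.63 in wild type pools, with overlapping groups.

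Among the R-spondins, the ligands of these receptors, 0 of 4 passed. Rspo3 read 8.59, 8.33 and 8.52 in null-labelled pools, against 8.14, 8.21 and 8.22 in wild type pools. Its groups stood apart, with a difference of 0.29 (SE 0.09) and a limma adjusted p of 0.134. Rspo1 read 8.32, 8.38 and 8.09 in null-labelled pools, against 8.42, 8.45 and 8.36 in wild type pools, where the groups overlapped and the difference was -0.15. Rspo2 read 6.13, 6.37 and 6.20 in null-labelled pools, against 6.05, 6.13 and 6.14 in wild type pools. Rspo4 read 5.57, 5.67 and 5.68 in null-labelled pools, against 5.62, 5.68 and 6.10 in wild type pools. Both lay in the range of the olfactory receptor rows, with overlapping groups.

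None of the 19 Wnt ligands passed, and 10 of them (Wnt1, Wnt2, Wnt3, Wnt3a, Wnt6, Wnt7a, Wnt8a, Wnt8b, Wnt10b and Wnt16) lay under the 95th percentile of the olfactory receptor rows in both genotypes. For such rows a small difference says little about the gene. Limma adjusted p-values of the ligands ran between 0.213 and 0.993 and their differences between -0.06 and 0.34.

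The rows of the ligands of the ureteric bud gave like values in both genotypes, not far from the array medians (6.984 to 7.057). Dkk1 had a higher wild type mean (7.70), yet did not pass as expressed in the authors' deposited table. Whether the rows of these ligands rise above background was not tested, and if they do not, their intervals say little about the ligands. Wnt9b read 7.27, 7.40 and 7.48 in null-labelled pools, against 7.43, 7.40 and 7.35 in wild type pools. Wnt11 read 6.98, 6.94 and 6.94 in null-labelled pools, against 6.85, 7.03 and 6.99 in wild type pools. Wnt7b, needed in mice for the renal medulla, read 6.92, 6.86 and 6.84 in null-labelled pools, against 6.94, 6.89 and 6.89 in wild type pools. The groups overlapped in all 3 genes, and the 95% intervals of the differences were -0.19 to 0.17 for Wnt9b, -0.18 to 0.16 for Wnt11 and -0.19 to 0.12 for Wnt7b.

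Wnt4, the ligand of the induced mesenchyme and of medullary stroma, was the 1 gene of the 54 with a second row. The row with the higher mean read 8.12, 8.30 and 8.37 in null-labelled pools, against 8.31, 8.32 and 8.27 in wild type pools, a difference of -0.04 (95% interval -0.22 to 0.15). The second row read 6.60, 6.63 and 6.65 in null-labelled pools, against 6.82, 6.89 and 7.03 in wild type pools. The 2 rows disagree: the groups of the first overlapped, and those of the second stood apart with a difference of -0.29 (SE 0.08, limma adjusted p of 0.232 over all rows). With the rows averaged the difference was -0.16. Neither row passed.

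Of the mesenchymal ligands, Wnt2b, known from the mesenchyme of the kidney, had the widest difference of the 19. It read 7.32, 7.13 and 7.62 in null-labelled pools, against 6.94, 7.00 and 7.11 in wild type pools. The groups stood apart, narrowly in pool 2, and the difference of 0.34 (SE 0.12) had a limma adjusted p of 0.213. Wnt5a, a ligand of responses that do not need beta-catenin, read 7.49, 7.35 and 7.29 in null-labelled pools, against 7.24, 7.30 and 7.22 in wild type pools, with overlapping groups and a difference of 0.12. The other ligands above the olfactory guide gave overlapping groups: Wnt5b differed by 0.12, Wnt10a by 0.12 and Wnt9a by 0.05.

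The Frizzled receptors, which bind Wnts directly, differed little, with a median absolute log2 difference of 0.03 against 0.08 over all genes. All 10 Frizzled genes had overlapping groups, differences between -0.06 and 0.05, and 95% intervals between -0.26 and 0.24, so that changes of over 1.2-fold lay outside every interval. Fzd7 averaged 9.26 ± 0.02 in null-labelled and 9.32 ± 0.12 in wild type pools, Fzd3 9.48 ± 0.07 in null-labelled and 9.44 ± 0.13 in wild type pools, and Fzd1 8.54 ± 0.02 in null-labelled and 8.52 ± 0.04 in wild type pools. Fzd8 lay in the range of the olfactory receptor rows, and its interval has less meaning.

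The co-receptor Lrp6 read 10.13, 9.93 and 10.04 in null-labelled pools, against 9.97, 10.03 and 9.85 in wild type pools. Lrp5 read 7.89, 8.01 and 8.08 in null-labelled pools, against 8.04, 8.01 and 7.99 in wild type pools. Both had overlapping groups, with intervals between -0.19 and 0.27.

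Ror1 and Ror2, receptor kinases that bind Wnt5a, stood apart in opposite directions without passing. Ror1 read 8.01, 8.18 and 8.01 in null-labelled pools, against 7.94, 7.81 and 7.85 in wild type pools (log2 difference 0.20, limma adjusted p of 0.295). Ror2 read 7.43, 7.36 and 7.42 in null-labelled pools, against 7.48, 7.51 and 7.51 in wild type pools (log2 difference -0.10, limma adjusted p of 0.588). Ryk, a Wnt receptor with an inactive kinase domain, read 9.16, 8.92 and 9.13 in null-labelled pools, against 9.08, 9.00 and 9.11 in wild type pools, with overlapping groups.

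Counting genes whose 3 null-labelled values all lay on one side of the 3 wild type values gave 12 of the 54 (22.2%), near the 19.5% of all genes. Of these 7 were higher in null-labelled pools (13.0%, all genes 11.5%) and 5 lower (9.26%, all genes 8.04%). By this count the 54 genes lie near the background of the array.

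**Figure D3:**
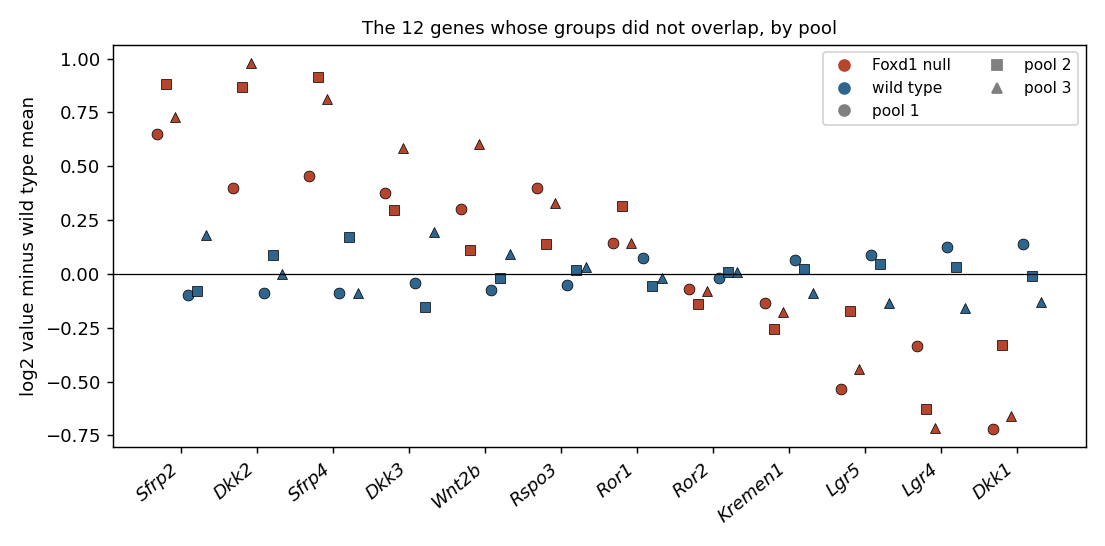
Log2 value minus the wild type mean (y axis) of the 12 genes whose groups did not overlap, in each of the 3 Foxd1 null pools (red, left of each pair) and 3 wild type pools (blue, right). Of the null pools, pool 1 (circles) is nearest to wild type for Dkk2, Sfrp4, Sfrp2 and Lgr4, and pool 2 (squares) for Dkk1, Dkk3, Lgr5, Wnt2b and Rspo3.

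Markers of other tissues differed between the pools and within the null-labelled group. The mean log2 level of 10 neuron markers was 7.27, 9.07 and 8.59 in null-labelled pools 1, 2 and 3, against 6.80 to 7.44 in wild type pools. That of 11 skeletal muscle markers was 8.37, 8.19 and 7.61 in null-labelled pools, against 6.82 to 7.74 in wild type pools. Liver markers (7 measured) stood at 9.04 in null-labelled pool 3, against 6.22 and 6.61 in the other null-labelled pools and 6.38 to 7.08 in wild type pools, and 7 adrenal cortex markers at 8.16 in null-labelled pool 3, against 5.95 and 6.01 in the other null-labelled pools and 5.99 to 6.76 in wild type pools. Of these lists 1 of 10 neuron, 1 of 11 muscle, 0 of 7 liver and 0 of 7 adrenal genes passed the threshold. Glia (4 measured), gonad (6), cartilage (5) and erythroid (6) markers had 0 genes past it.

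For single null-labelled pools the share of all genes above every wild type pool was not counted. The smaller counts given here are therefore not read as a result. Every null-labelled pool held some of the neuron, muscle, liver or adrenal markers above all wild type pools. In null-labelled pool 1 these were 8 of 11 muscle and 3 of 10 neuron markers, among them Elavl4, the 1 neuron gene that passed (7.28 in null-labelled pool 1, against 6.91 to 7.02 in wild type pools), and 0 of 7 liver and 0 of 7 adrenal markers. In pool 2 they were 9 of 11 muscle, 10 of 10 neuron, 0 of 7 liver and 0 of 7 adrenal markers. In pool 3 they were 2 of 11 muscle markers, among them Tnnt3, the 1 muscle gene that passed (9.08 in null-labelled pool 3, against 8.15 to 8.73 in wild type pools), and 10 of 10 neuron, 7 of 7 liver and 7 of 7 adrenal markers. Set beside this, Sfrp2 lay above the wild type mean by 0.65, 0.88 and 0.73 in null-labelled pools 1, 2 and 3, Sfrp4 by 0.45, 0.91 and 0.82, and Dkk2 by 0.40, 0.87 and 0.98. For Dkk1 the differences of the same pools were -0.72, -0.33 and -0.66 and for Lgr4 -0.33, -0.63 and -0.72. The part of neuron, muscle, liver and adrenal tissue in these differences was not tested.

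Some lists of cells that belong to the kidney also moved. Medullary and ureteric stroma and smooth muscle markers averaged 8.49 to 8.75 in null-labelled pools and 7.78 to 7.94 in wild type pools. Of these 8 markers, 6 were higher past the threshold and 0 lower. The 6 were Acta2, Tagln, Myh11, Cnn1, Actg2 and Tbx18. Penk (log2 difference -0.25, groups apart) and Alx1 (-0.09, groups overlapping) lay on the lower side and did not pass. Endothelial markers averaged 9.13 to 9.35 in null-labelled pools and 8.80 to 8.90 in wild type pools (3 of 6 higher), and macrophage markers 7.72 to 8.05 in null-labelled and 7.34 to 7.43 in wild type pools (3 of 6 higher). Renal vesicle markers averaged 7.94 to 8.00 in null-labelled pools and 8.48 to 8.54 in wild type pools (3 of 7 lower). Podocyte and tubule markers averaged 6.47 to 6.58 in null-labelled and 7.08 to 7.51 in wild type pools (4 of 7 lower). The 4 were the tubule genes Lrp2, Cubn, Slc12a1 and Hnf4a. The podocyte genes Nphs1 (log2 difference -0.02) and Podxl (-0.25) and the tubule gene Umod (-0.23) did not pass. Nephron progenitor markers averaged 8.47 to 8.66 in null-labelled and 8.65 to 8.77 in wild type pools, where 1 of 6 was lower. Without passing, Six2 stood apart lower (log2 difference -0.43) and Eya1 higher (0.25). Ureteric markers averaged 8.60 to 8.67 in null-labelled and 8.38 to 8.48 in wild type pools, where 1 of 7 was higher. Cortical stroma markers averaged 9.28 to 9.45 in null-labelled and 9.42 to 9.46 in wild type pools, where 2 of 6 were lower. In that list Foxd1 (0.30), Meis1 (0.31) and Fat4 (0.23) stood apart higher without passing, and the median log2 difference was 0.03. The part of these cell types in the changes of Sfrp2, Sfrp4, Dkk2, Dkk1 and Lgr4 was not tested.

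**Figure D4:**
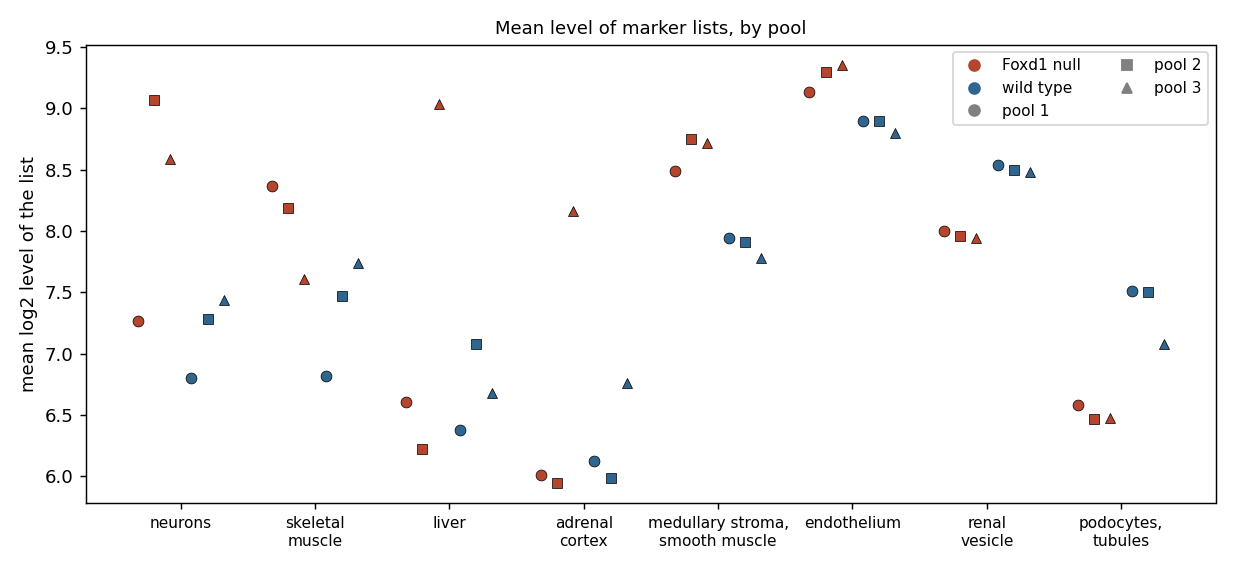
Mean deposited log2 level of 8 marker lists (y axis) in each of the 3 Foxd1 null pools (red, left of each pair) and 3 wild type pools (blue, right). Neuron markers are high in null pools 2 and 3, skeletal muscle markers in null pools 1 and 2, and liver and adrenal markers in null pool 3, while the 4 lists of kidney cells on the right separate all null from all wild type pools.

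Beyond the 54 genes, 79 of 82 listed genes of the wider Wnt pathway were measured. They were listed with earlier results of these data known, so their share called is a description and not a test. Of the 79 genes, 1 rose and 4 fell (6.33%, all genes 2.40%). Their median log2 difference was 0.01, as over all genes. The rise was that of Sulf1, which removes sulfate groups from heparan sulfate outside the cell and so alters the binding of Wnts. Sulf1 read 10.23, 10.49 and 10.47 in null-labelled pools, against 8.08, 8.33 and 8.80 in wild type pools, 3.98-fold higher (log2 difference 1.99, SE 0.16), while its paralog Sulf2 differed by 0.09 and did not pass.

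The falls were those of Sostdc1, Lhx1, Pax8 and Cited1. Sostdc1, a secreted antagonist of Wnt and BMP signals, read 7.35, 7.66 and 7.41 in null-labelled pools, against 8.79, 8.70 and 8.37 in wild type pools, 2.22-fold lower in null-labelled pools. Lhx1, Pax8 and Cited1 stood in the list of Wnt targets, where 3 of 13 fell and 0 rose. They are also markers of the early nephron or its progenitors, and all 3 also stand in the nephron lists given above. The other 10 targets of the list did not pass and lay on both sides of 0. Ccnd1 differed by -0.42 and Bmp4 by 0.36, with limma adjusted p-values of 0.0776 and 0.0759 and groups that stood apart. The log2 differences of the rest were -0.14 for Fgf8, -0.11 for Cdx2, -0.02 for Jag1, 0.05 for Sp5, 0.07 for Ascl2, 0.11 for Cdx1, 0.13 for Myc and 0.14 for Tnfrsf19, where the groups of Tnfrsf19 also stood apart.

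No listed gene of the intracellular relay passed. As 2.40% of all genes were called, 0 in lists of this size lies near that share and is not read as a result. Of 20 genes of the cytoplasmic relay and destruction complex 0 passed, with beta-catenin (Ctnnb1) at 11.00 ± 0.05 in null-labelled and 10.92 ± 0.04 in wild type pools and the feedback gene Axin2 at 7.95 ± 0.08 in null-labelled and 7.92 ± 0.15 in wild type pools. Of 13 nuclear factors 0 passed, where Lef1, a DNA-binding partner of beta-catenin, differed by -0.33 (limma adjusted p of 0.0812). Of 14 planar cell polarity genes, 3 secretion genes and 2 receptor ubiquitin ligases 0 passed, with Daam1 at 0.31 (limma adjusted p of 0.0874), the Wnt carrier Wls at 0.19 and the ligase Znrf3 at -0.12.

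The calls rest on few pools. Sfrp2 passed in all 6 fits that left out 1 pool (limma adjusted p up to 0.0292), Sfrp4, Dkk1 and Lgr4 each in 2 of 6 (up to 0.0821, 0.143 and 0.155) and Dkk2 in 1 of 6, without null-labelled pool 1 (up to 0.107). With all 35556 rows of the array fitted together none of the 5 passed, Sfrp2 having a limma adjusted p of 0.0551 and the others between 0.121 and 0.17.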

How the data were processed

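Per the labels' protocols, 50 ng of RNA per pool was amplified and biotin-labelled with NuGEN kits. The authors deposited log2 values, already summarised and normalized by steps not given in the sources used here. Their log2 scale was checked against the deposited table of 488 probe sets, which holds, per the file headers, a fold (here a signed score), p-values and medians taken to be in natural log units (slope 0.99 after conversion). Gene names came from the platform's annotation, where 21789 of 35556 rows had 1 symbol, and per gene the row with the highest mean was kept. No filter was applied.

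The fit had genotype as its single term and used all 6 pools (limma 3.58.1, R 4.3.3), with two-sided p-values adjusted by the Benjamini-Hochberg method over 19938 genes. Errors are model SEs, SDs over 3 pools or 95% intervals. The number of arrays limits the precision (median SE 0.0859). The fit was tested on simulated data. Tables were made in Python 3.11.15 with pandas 2.3.3.

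Every gene found by the symbol rule is given, with per-pool values for those that passed and for the main ligands, receptors and modulators. Genes and lists were chosen with earlier results of these data known, and genes of the wider pathway named without passing were chosen after their values were seen. Promoters are from RefSeq (GRCm38.p6). Alternatives covered variance model, scaling, filter, row choice, array weights, replicate block and pools left out.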

Additional observations from a re-analysis of the deposited data

How the results depend on the processing

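Over all genes 326 rose and 153 fell. Among the 54 Wnt genes the same 5 were called with the trend and robust variance model, quantile normalization, median centring, the filter on low rows, array weights and the mean of the rows of a gene. With all rows tested together the counts were 71 and 37 over all rows, 0 and 0 among the 54 genes, and 2 falls among the other pathway genes; the cause was not tested. Without 1 pool, rises over all genes ran between 127 and 572 and falls between 64 and 171, rises among the 54 genes between 1 and 3 and falls between 0 and 2, and their median difference between -0.02 and 0.05. Other pathway genes rising numbered 3 with the trend and robust variance model and with the filter on low rows (Bmp4 and Daam1 beside Sulf1).

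In fits added after the data were seen, 1 null-labelled pool was set against the wild type pools and assumed to vary like them. The counts therefore hold no spread among null-labelled pools and do not tell those pools apart. For pool 2 only falls are counted below, and for pool 3 most counts are left out. Log2 differences of Sfrp2, Sfrp4, Dkk2, Dkk1 and Lgr4 were 0.88, 0.91, 0.87, -0.33 and -0.63 in pool 2. In pool 3 they were 0.73, 0.82, 0.98, -0.66 and -0.72, so each kept its direction in both pools. Pool 1 alone gave 25 rises and 21 falls over all genes, 0 and 0 among the 54 genes, and 0 rises and 2 falls among the other pathway genes. Pool 2 alone gave 80 falls over all genes and 0 among the 54. Pool 3 alone gave 2 rises among the other pathway genes and a median difference of 0.08 for the 54 genes.

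The replicate numbers were not shown to pair the pools: deviations from the group means of same-numbered pools correlated at 0.125, 0.0677 and 0.0533, though each pool correlated best with its own number. With the replicate block 381 genes rose and 158 fell, the 5 calls were kept, and Dkk3 passed as a sixth (limma adjusted p of 0.0272). Single-pool fits aside, Sfrp2 passed in 13 of 14 alternatives, Dkk1, Lgr4 and Sfrp4 each in 9 of 14 and Dkk2 in 8 of 14. Dkk3, not called in the main fit, passed in 1 of 13. Most of the 907 values of the 54 genes and Foxd1 under 17 alternatives came from genes that did not pass in the main fit. Among the 907 values, 0 called values changed sign, and 115 values past the threshold in neither fit changed sign. The 17 genes in the range of the olfactory receptor rows have little signal over background, and small changes in them were not detectable.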
